A study of Mus musculus with 12 samples.

Results

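Genes of Kupffer cells, monocytes and neutrophils were followed through arrays of KK-Ay and KK mice. The set held 40 genes in 4 classes, and a gene was measured where a transcript cluster (the array's unit of a gene) carried its symbol and no other, which was so for 38 of the 40 among 19938 genes on the array. The measured genes were 11 Kupffer cell genes, 11 genes shared by myeloid cells, 6 monocyte and recruited macrophage genes and 10 neutrophil genes, each read by 1 cluster. Ly6c2 shared its clusters with Ly6c1 and Spp1 had no cluster of its own in the annotation used here. Their signals were therefore not analysed here, and both enter only the promoter counts below. KK mice are a background prone to diabetes, and KK-Ay mice (KK.Cg-Ay/J) carry in addition the Ay allele of agouti, which drives obesity and type 2 diabetes (T2D). The 12 arrays formed 6 groups of 2 by their titles, namely 1 (arrays 1-3 and 1-5), 6K, 6Y, 16Y, 42WKK (arrays A and B) and 42Y. The design text of the series puts 6Y, 16Y and 42Y among the T2D mice and 1, 6K and 42WKK among the controls, whereas the sample records call 6K T2D and 42Y control. The groups are therefore named by their titles below. The methods name mice of 42 weeks, and neither the age behind the other titles nor the strain of arrays 1-3 and 1-5 is given in them. Whether the 2 arrays of a group stand for 2 mice is not stated either, so the spread behind each p-value may be technical.

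Checks of the labels bear on all that follows. Agouti itself had a log2 signal of 6.78 to 7.06 in the 6 arrays with Y in their titles and of 5.20 to 5.51 in the other 6. Eif2s2 (the brighter of 2 clusters) and Raly, whose genes lie near agouti, were lower over the Y groups by log2 fold changes of -1.07 and -0.74 (adjusted p = 0.00073 and 0.021, limma). Whether the Eif2s2 cluster itself reads the gene copy near agouti was not checked. The sample records name blood leukocytes and the methods name liver. The median log2 signal of 8 hepatocyte genes lay between 12.95 and 13.22 in every array, and that of 5 T cell genes between 3.99 and 4.60. The neutrophil genes of the set were as low, with medians of 3.97 to 4.63, and so were the monocyte and recruited macrophage genes (3.87 to 4.77). No gene of these 2 classes had a mean of at least 6. Whether their signals stood above background was not tested. Array medians over all 35556 clusters ran from 4.74 to 4.88, and arrays of the same group correlated at 0.983 to 0.991 (Pearson, over all clusters). Array 6Y-2 was the highest of the 12 for 24 of 38 members, against 8.73% of all clusters, and array 1-3 was the lowest for 16 of 38, against 8.17%. Values without these arrays are given beside several of the results below.

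Kupffer cells are the resident macrophages of the liver sinusoids, where they take up particles, old red cells and bacterial products from portal blood. Injury brings monocytes from the blood, which become macrophages with genes of their own, and neutrophils, which follow chemokines through receptors such as Cxcr2. Neutrophils make their granule proteins early in the marrow and express surface receptors and the calprotectin subunits S100a8 and S100a9 to a late stage. In RNA of a whole tissue, fewer cells of a type and less RNA per cell cannot be told apart.

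The promoters of 4 neutrophil genes are shown because they had the largest differences between 42Y and 42WKK among the neutrophil genes. They are the 250 bases before the annotated start in RefSeq (GRCm38.p6), written 5′ to 3′ on the strand of the gene. The positions were chr16:48872358-48872607 on the plus strand for Retnlg, chr1:74153744-74153993 on the plus strand for Cxcr2, chr3:90668821-90669070 on the plus strand for S100a8 and chr3:90695722-90695971 on the minus strand for S100a9. Capitals mark matches, on either strand, to the letters TTGCNNAA of C/EBP factors or GAGGAAG of PU.1, both regulators of myeloid genes.
Retnlg: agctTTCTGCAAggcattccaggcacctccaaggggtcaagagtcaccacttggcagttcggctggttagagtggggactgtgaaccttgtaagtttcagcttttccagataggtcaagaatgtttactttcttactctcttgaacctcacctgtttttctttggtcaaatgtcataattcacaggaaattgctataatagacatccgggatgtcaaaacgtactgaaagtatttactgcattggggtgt
Cxcr2: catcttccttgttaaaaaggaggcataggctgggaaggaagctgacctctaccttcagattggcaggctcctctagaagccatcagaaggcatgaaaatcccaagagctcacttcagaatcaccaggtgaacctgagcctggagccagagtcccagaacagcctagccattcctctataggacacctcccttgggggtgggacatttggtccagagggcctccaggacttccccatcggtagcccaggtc
S100a8: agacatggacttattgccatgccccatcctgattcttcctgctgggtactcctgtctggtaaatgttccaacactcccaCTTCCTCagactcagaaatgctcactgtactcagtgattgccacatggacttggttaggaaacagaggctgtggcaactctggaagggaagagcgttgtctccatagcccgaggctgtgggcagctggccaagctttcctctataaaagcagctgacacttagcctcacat
S100a9: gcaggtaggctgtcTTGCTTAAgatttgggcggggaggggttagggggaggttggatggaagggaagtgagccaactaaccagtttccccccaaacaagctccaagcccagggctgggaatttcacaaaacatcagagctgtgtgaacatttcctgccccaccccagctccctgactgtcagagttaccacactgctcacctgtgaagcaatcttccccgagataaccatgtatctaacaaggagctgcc
The Retnlg match began 246 bases and the S100a9 match 236 bases before the start, both of the C/EBP letters, and the S100a8 match 171 bases before it, of the PU.1 letters. The Cxcr2 window held neither. Of 37 promoters listed for members, some genes having several, 16 (43.2%) held the PU.1 letters, against 10.6% of all 32851 promoters of this length. Among them were the promoters of C1qc, Cd5l, Marco and Mrc1 in the Kupffer class and of Csf3r, Elane and Mpo beside S100a8. In the monocyte class they were those of Itgam, Trem2, Ly6c2 and Spp1, of which Ly6c2 and Spp1 had no signal analysed here. The C/EBP letters stood in 4 of 10 neutrophil promoters (Ltf, Ngp, Retnlg and S100a9), against 9.56% of all. They stood in 3 of 8 of the shared myeloid class, in 1 of 10 of the monocyte class (Spp1) and in 0 of 9 of the Kupffer class. A match is only a run of letters in this window and was not set against any binding.

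Neutrophil genes differed by unequal amounts between 42Y and 42WKK. Retnlg, a resistin-like protein secreted by neutrophils, rose 3.73-fold in 42Y over 42WKK. S100a9, Csf3r, Cxcr2 and S100a8 had higher values in both 42Y arrays than in both 42WKK arrays, with folds from 1.84 to 2.30 that did not pass the test. The granule genes Elane, Ngp, Camp and Ltf had mean differences between -0.17 and -0.09 on the log2 scale. Mpo had one of 0.19, with 4.54 and 4.35 in 42Y against 4.24 and 4.26 in 42WKK, so that it too was higher in both 42Y arrays. The spread within the class was seen in the values and was not tested.

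Retnlg had log2 signals of 5.23 and 5.62 in 42Y and of 3.51 and 3.54 in 42WKK. In the other arrays it was 3.94 and 4.11 in 16Y, 3.94 and 4.43 in 6Y, 3.76 and 3.59 in 6K, and 3.73 and 3.91 in group 1. The 6 Y arrays all lay above the 6 others, which was so for 1 of 38 members and for 0.166% of all clusters. The log2 fold change of 42Y over 42WKK was 1.90 (95% interval 1.47 to 2.33, adjusted p = 0.0044, limma with Benjamini-Hochberg adjustment over all clusters). It was also higher in 42Y than in 6Y, by 1.24 (standard error 0.19, adjusted p = 0.020), and than in 16Y, by 1.40 (standard error 0.19, adjusted p = 0.033).

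Cxcr2, the receptor through which neutrophils follow Cxcl1 and related chemokines, had log2 signals of 3.82 and 4.55 in 42Y and of 3.10 and 2.97 in 42WKK. Its values were 2.56 and 2.96 in 6Y, 2.89 and 3.00 in 16Y, 2.51 and 2.63 in 6K, and 2.95 and 3.24 in group 1. Both 42Y arrays thus lay above the other 10. The gene rose in 42Y over 6Y by 1.42 (standard error 0.23, adjusted p = 0.026), while the difference from 42WKK was 1.15 (standard error 0.23, adjusted p = 0.05001), which missed the threshold of 0.05 narrowly.

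S100a9, a subunit of calprotectin, had log2 signals of 6.00 and 6.61 in 42Y against 4.96 and 5.24 in 42WKK. The other arrays lay between 4.79 and 5.69, the highest being 6Y-2. The log2 difference of 42Y from 42WKK was 1.20 (95% interval 0.54 to 1.87, adjusted p = 0.086). S100a8, its partner, was 4.35 and 5.54 in 42Y against 3.89 and 3.75 in 42WKK, a difference of 1.13 (adjusted p = 0.21) with much of it in array 42Y-2, and array 6Y-2 at 4.56 lay above the lower 42Y array. Csf3r, the receptor for granulocyte colony-stimulating factor, was 5.53 in both 42Y arrays and 4.45 and 4.86 in 42WKK, a difference of 0.88 (95% interval 0.40 to 1.35, adjusted p = 0.081). The next highest array for Csf3r was 16Y-1 at 5.10.

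These 5 genes were each highest in array 42Y-2, as were Ccr2 and Gpnmb, so that 7 of 38 members had their highest value there, against 9.16% of all clusters. Their median pairwise correlation over the 12 arrays was 0.862 (10 pairs), and 0.886 without arrays 6Y-2 and 1-3. The 5 granule genes had a median of 0.455, which became -0.03 without these arrays. Array 6Y-2, left out here, was the highest for the granule genes on average, while the 42Y pair, highest for the other 5, was kept. With group means removed the medians were 0.773 for the first 5 genes and 0.449 for the granule genes. The correlations come from the same 12 arrays and describe them only.

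Mpo (myeloperoxidase) and Elane (neutrophil elastase) are stored in the primary granules, and Camp, Ngp and Ltf in later ones. Mpo had its highest signal, 4.82, in 6Y-2 and lay between 4.23 and 4.54 in the other arrays. Elane ran from 3.92 to 4.33, Camp from 3.99 to 4.54 and Ltf from 4.16 to 4.70 over all 12. Ngp was 4.71 in 6Y-2 and 3.26 to 3.98 elsewhere. None of the 5 was called in any comparison.

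**Figure D1:**
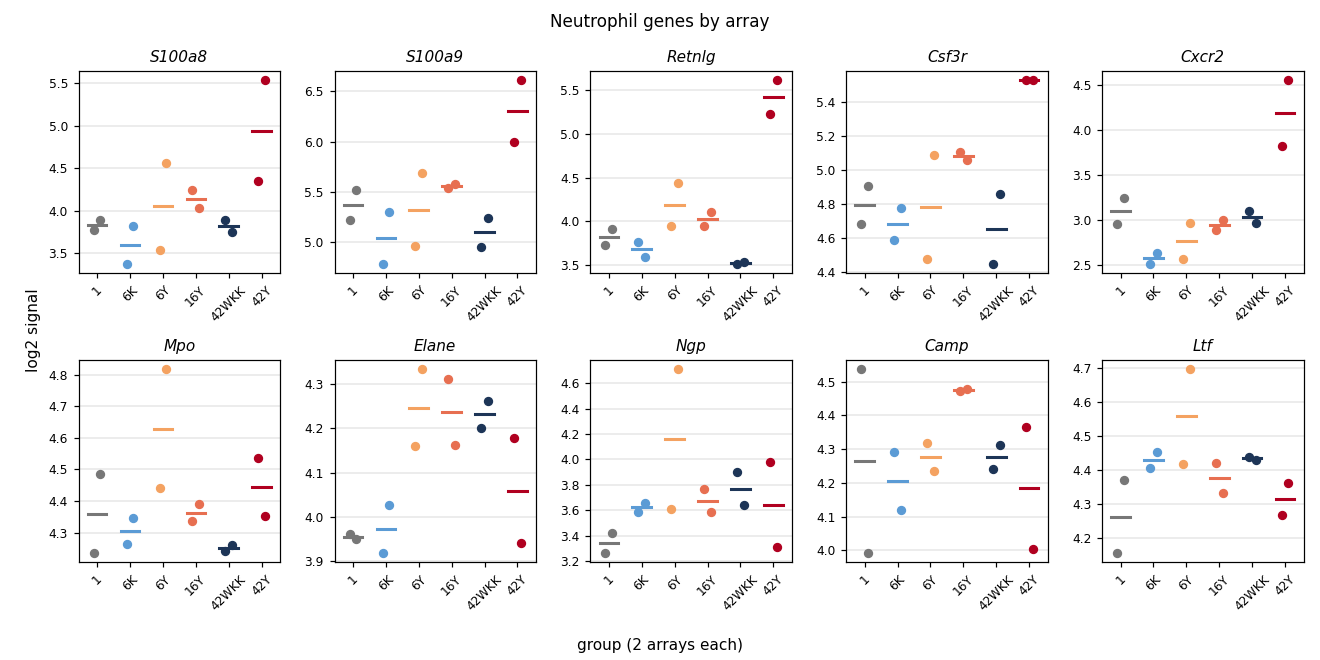
Log2 signal (y axis) of the 10 neutrophil genes in the 6 groups (x axis), with a point for each array, 2 per group, and a bar at the mean of the pair. The y axes differ between panels and do not start at 0. Both 42Y arrays lie above the other 10 for S100a9, Retnlg, Csf3r and Cxcr2, and no granule gene of the lower row shows this.

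Among genes shared by myeloid cells, Cd14 stood out. Cd14, the co-receptor that presents bacterial lipopolysaccharide to Toll-like receptors, had log2 signals of 6.29 and 6.17 in 42Y and of 4.46 and 4.82 in 42WKK, and it rose 3.02-fold. The remaining arrays lay between 4.11 (1-5) and 5.32 (16Y-2), so that the 42Y pair did not overlap with any other group. The log2 fold change was 1.59 (95% interval 1.16 to 2.03, adjusted p = 0.0094), and it was 1.27 over 6Y (standard error 0.19, adjusted p = 0.019). Over 16Y the difference was 1.14 and did not pass (adjusted p = 0.056). Hepatocytes can also make Cd14, and the arrays do not tell which cells held the RNA.

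Of the other 10 genes in this class none was called between 42Y and 42WKK, and 9 had the higher mean in 42Y. Fcgr1, the high-affinity receptor for IgG, was 5.25 and 5.04 in 42Y against 4.71 and 4.61, a log2 difference of 0.48 (standard error 0.12, adjusted p = 0.092). Fcer1g, the signalling chain shared by Fc receptors, was 6.58 and 6.62 against 5.98 and 6.09, a difference of 0.56 (standard error 0.37, adjusted p = 0.48), with its highest value of 7.32 in 6Y-2. Cd68, Csf1r, Lyz2, Tyrobp and Ctss also had both 42Y arrays above both 42WKK arrays, with differences from 0.20 to 0.48.

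Over the whole set, 2 of 38 members were called between 42Y and 42WKK, both higher, where 1.85% of all clusters were called and 0.934% were called higher. At an unadjusted p under 0.05 the number was 9 (23.7%), against 17.3% of all clusters. The mean was higher in 42Y for 28 of 38, and the median log2 difference was 0.25, against 0.02 over all clusters. By class the medians were 0.54 for neutrophil, 0.28 for shared myeloid, 0.24 for Kupffer cell and 0.16 for monocyte and recruited macrophage genes. With an array of the 4 left out, the monocyte median ran from -0.04 (without 42Y-2) to 0.32 (without 42Y-1) and the Kupffer cell median from 0.11 (without 42Y-1 or 42WKKA) to 0.39 (without 42Y-2), while the neutrophil median stayed between 0.41 and 0.63 and the shared myeloid median between 0.25 and 0.32. Both 42Y arrays lay above both 42WKK arrays for 21 of 38 members (55.3%), against 25.1% of clusters, and above all other 10 arrays for 7 of 38 (18.4%), against 3.09%. The 7 were Cd14, Itgax, Gpnmb, S100a9, Retnlg, Csf3r and Cxcr2, none of them a Kupffer cell gene. Without array 42WKKA, or with only the 4 arrays compared, no member was called, and without 42Y-1 there were 4 (Gpnmb and Cxcr2 beside Cd14 and Retnlg).

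**Figure D2:**
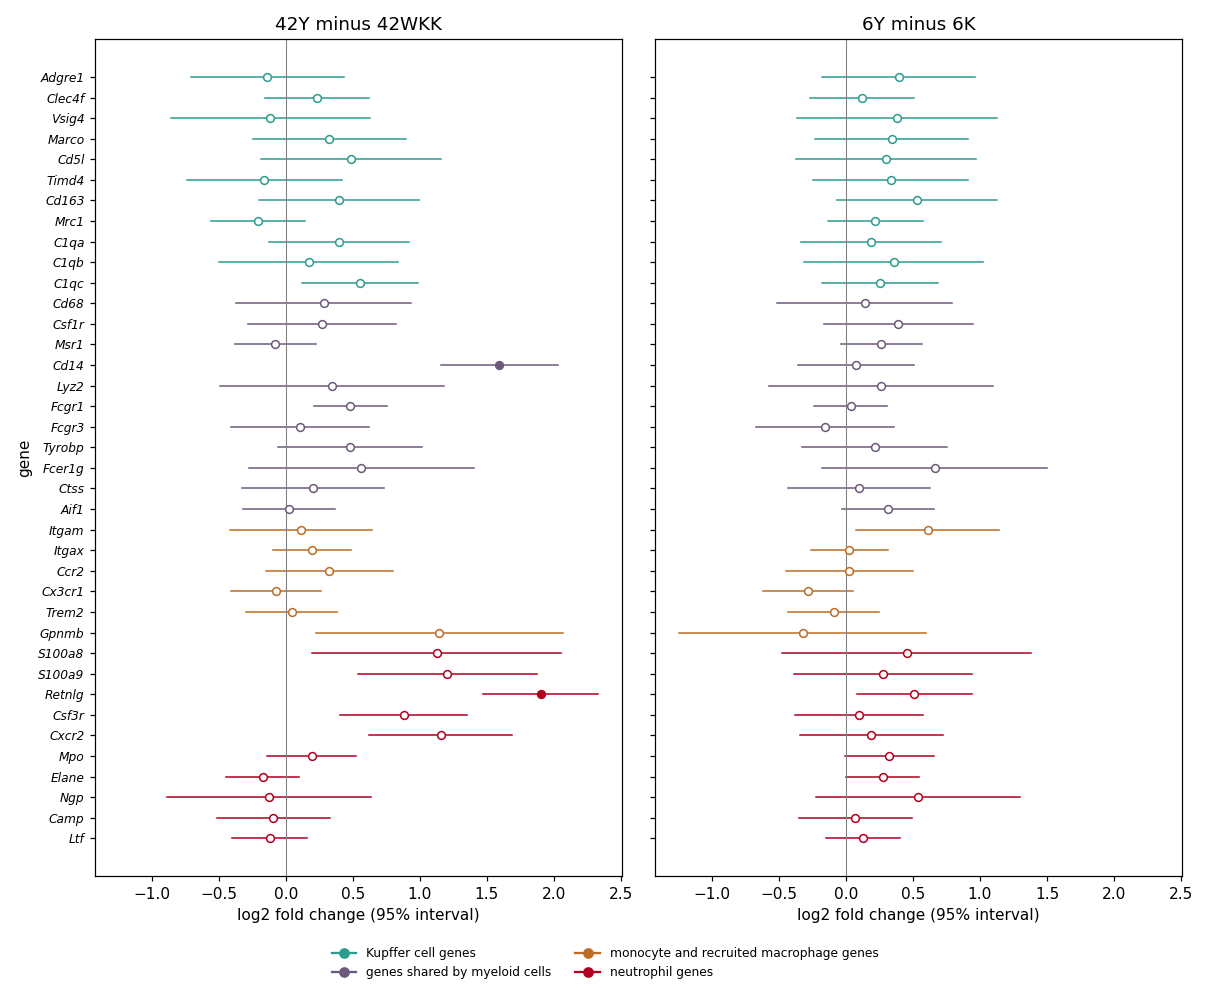
Log2 fold change (x axis) of the 38 measured members (y axis) in 42Y minus 42WKK (left) and 6Y minus 6K (right), with 95% intervals from the limma fit and colours for the 4 classes. Filled points passed an adjusted p under 0.05, which on the left were Cd14 and Retnlg, at 1.59 and 1.90, and on the right no member.

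Kupffer cell genes had no called member in any of the 8 comparisons, with adjustment over all clusters. With adjustment over clusters of 1 symbol, Timd4 was called lower in 42Y than in 6Y (-0.90, adjusted p = 0.045) and Mrc1 lower in 16Y than in 6Y (-0.57, adjusted p = 0.047). Among clusters with a mean log2 signal of at least 6, Mrc1 was also called there (adjusted p = 0.027), and C1qc was called higher over the Y groups against the others. In 16Y against 6Y the median of the Kupffer cell genes was -0.20 and that of 6 liver endothelial genes, all lower, was -0.87. The part of endothelial cells in the Mrc1 value was not tested. Between 42Y and 42WKK the 11 genes differed by -0.21 (Mrc1, the mannose receptor) to 0.56 (C1qc) on the log2 scale, with 7 higher and 4 lower means. At an unadjusted p under 0.05 the number was 1 (9.09%), against 17.3% of all clusters. Clec4f and Timd4, which mark resident Kupffer cells, had differences of 0.24 (95% interval -0.15 to 0.62) and -0.16 (95% interval -0.74 to 0.42). Vsig4, a complement receptor, had -0.11 (95% interval -0.85 to 0.63), and Adgre1, an adhesion receptor that marks mouse macrophages, -0.14 (95% interval -0.71 to 0.43). With 2 arrays a group, changes of any size within these intervals are not excluded.

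C1qc, a chain of complement C1q, had log2 signals of 6.75 and 6.53 in 42Y and of 6.05 and 6.12 in 42WKK, the largest difference of the class at 0.56 (95% interval 0.12 to 0.99, adjusted p = 0.19). C1qa and C1qb, whose genes lie beside it on chromosome 4, had differences of 0.40 and 0.17. Cd5l, a secreted protein of tissue macrophages, was 7.78 and 7.18 against 6.98 and 7.01, a difference of 0.48 (standard error 0.29, adjusted p = 0.45). Cd163, the receptor for haemoglobin bound to haptoglobin, was 6.57 and 6.46 against 5.81 and 6.42, a difference of 0.40 (standard error 0.26, adjusted p = 0.49). The difference of Cd5l ran from 0.18 without 42Y-1 to 0.79 without 42Y-2, and that of Cd163 from 0.10 without 42WKKA to 0.70 without 42WKKB. For C1qc, C1qa, Cd5l, Cd163 and Clec4f the 42Y pair lay above the 42WKK pair but inside the range of the remaining arrays.

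The Kupffer cell genes varied between groups and also between arrays of the same group. Array 6Y-2 was the highest of 12 for all 11 genes, on average 0.73 above each gene's mean on the log2 scale, while 6Y-1 of the same group lay at 0.07. Array 1-3 was the lowest for 6 of 11 and lay on average at -0.61, with 1-5 of the same group at -0.24. The 42WKK pair lay at -0.26 and -0.13, and the 6K pair at 0.08 and 0.10. Vsig4, as an example, was 8.26 in 6Y-2 and 7.50 in 6Y-1, and 6.10 in 1-3 and 6.87 in 1-5. Adgre1 was 6.46 and 5.71 in the same 6Y arrays, and 4.77 and 5.36 in group 1. The median correlation between 2 Kupffer cell genes over the 12 arrays was 0.722 (55 pairs, all above 0), and 0.418 without 6Y-2 and 1-3. In 6Y-2 the lists of 6 liver endothelial genes and 6 stellate cell genes were also at their highest, at 0.71 and 0.56 above the gene means, while the 8 hepatocyte genes lay at 0.04 in a range of -0.12 to 0.09. The part of these cell types in the Kupffer cell result was not tested.

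**Figure D3:**
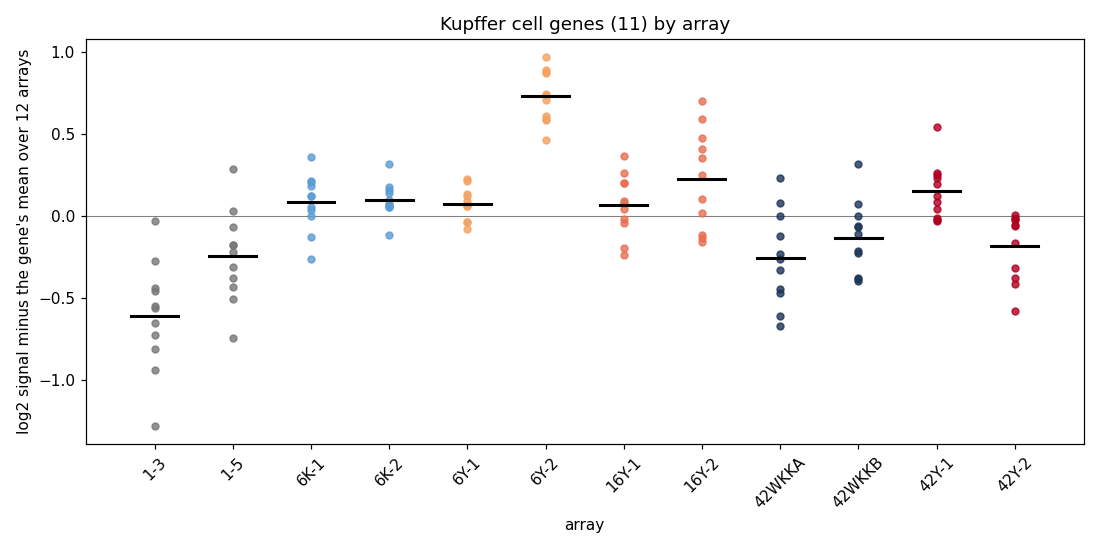
Log2 signal of the 11 Kupffer cell genes minus each gene's mean over the 12 arrays (y axis) in each array (x axis), with a point for each gene, a black bar at their mean and colours for the groups. Array 6Y-2 has every gene above its mean and the highest bar, at 0.73, and array 1-3 has the lowest, at -0.61.

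The comparison of 6Y with 6K called 1 of 35556 clusters (0.00281%), which was agouti, and no member, with 3 of 38 (7.89%) at an unadjusted p under 0.05, against 5.28% of clusters. All 11 Kupffer cell genes and all 10 neutrophil genes had higher means in 6Y, with class medians of 0.33 and 0.28. Array 6Y-2 carried much of this. Without it the Kupffer cell median was -0.04 and the neutrophil median -0.01, and without 6Y-1 they were 0.71 and 0.46. Adgre1 and Vsig4 were at 5.70 and 5.68, and 7.56 and 7.44, in 6K, and their differences of 0.39 and 0.38 (adjusted p = 0.92 and 0.95) became 0.02 and -0.000185 without 6Y-2. Cd163 was 6.55 and 7.09 in 6Y against 6.22 and 6.37 in 6K, a log2 difference of 0.53 (adjusted p = 0.92) that was 0.26 without 6Y-2. Fcer1g was 5.96 and 7.32 against 5.93 and 6.02, a difference of 0.66 that became -0.02 without 6Y-2. Csf1r, the receptor for macrophage colony-stimulating factor, was 7.30 and 8.003 against 7.24 and 7.27, a difference of 0.39 (adjusted p = 0.92) that was 0.04 without 6Y-2. Aif1, which encodes Iba1, was 4.82 and 4.60 against 4.38 and 4.41, a difference of 0.31 with both 6Y arrays above both 6K arrays (adjusted p = 0.92). Of the neutrophil genes Retnlg differed by 0.51 (standard error 0.19, adjusted p = 0.90), S100a8 by 0.46 (standard error 0.41, adjusted p = 0.95) and Ngp by 0.54 (standard error 0.33, adjusted p = 0.92). Without 6Y-2 these were 0.26, -0.05 and -0.01.

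The test of whether the Y effect at 42 differed from that at 6 called no member, 7 of 38 (18.4%) being at an unadjusted p under 0.05, against 13.2% of clusters, and 0.143% of all clusters were called. For Cd14 the 2 effects differed by 1.52 on the log2 scale (standard error 0.27, adjusted p = 0.086), for Retnlg by 1.39 (standard error 0.27, adjusted p = 0.098) and for Cxcr2 by 0.96 (standard error 0.33, adjusted p = 0.28). The difference between the effects is therefore not shown at this threshold.

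Genes of monocytes and recruited macrophages had no called member. Gpnmb, a glycoprotein of lipid-laden macrophages, had log2 signals of 3.99 and 5.49 in 42Y and of 3.34 and 3.84 in 42WKK. The remaining 8 arrays ran from 3.10 to 3.67, so both 42Y arrays were the highest, and the pair was 1.502 apart. The difference from 42WKK was 1.14 (95% interval 0.22 to 2.06, adjusted p = 0.20). It was 0.39 without array 42Y-2, and 1.90 without 42Y-1 (adjusted p = 0.022). Itgax, the CD11c integrin, was 3.97 and 3.89 in 42Y against 3.66 and 3.80 in 42WKK, a difference of 0.20 (adjusted p = 0.48), and array 1-5, at 3.887, lay just below the lower 42Y array, at 3.889. Ccr2, the receptor that draws monocytes towards Ccl2, was 2.49 and 3.00 against 2.20 and 2.64, a difference of 0.33 (adjusted p = 0.47) with overlapping groups, which ran from 0.07 without 42Y-2 to 0.58 without 42Y-1. Trem2, a lipid receptor of macrophages, differed by 0.04, with a 95% interval of -0.30 to 0.38. Itgam, the CD11b integrin of monocytes and neutrophils, was 4.75 and 4.98 in 6Y against 4.21 and 4.30 in 6K, a difference of 0.61 (standard error 0.23, adjusted p = 0.92). Cx3cr1, the fractalkine receptor, was 4.84 in both 6Y arrays against 5.14 and 5.12 in 6K, a difference of -0.29 (adjusted p = 0.92).

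**Figure D4:**
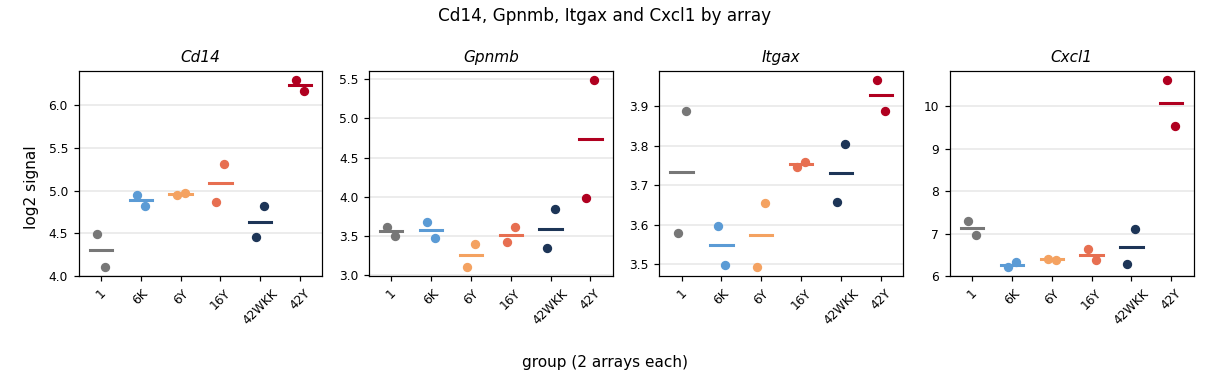
Log2 signal (y axis) of Cd14, Gpnmb, Itgax and Cxcl1 in the 6 groups (x axis), with a point for each array, 2 per group, and a bar at the mean of the pair. The y axes differ between panels and do not start at 0. Both 42Y arrays are the highest in all 4 panels, 1.502 apart for Gpnmb and close together for Cd14 at 6.29 and 6.17.

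Between 42Y and 6Y, 3 of 38 members were called, all higher (Cd14, Retnlg and Cxcr2), where 1.83% of clusters were called and 0.793% were called higher. All 11 Kupffer cell genes had lower means in 42Y than in 6Y, with a median difference of -0.40 and none called (3 of 11 at an unadjusted p under 0.05, 27.3%, against 16% of clusters). Without array 6Y-2 the median was -0.08, with 3 genes higher and 8 lower and 0 at an unadjusted p under 0.05. All 6 liver endothelial genes (median -0.49, 0 called) and all 6 stellate cell genes (median -0.56, 2 called) were lower in 42Y as well, and their part in the Kupffer cell values was not tested. Between 16Y and 6Y, Msr1 was the 1 member called, where 1.78% of clusters were called and 1.2% were called lower. Msr1, the scavenger receptor A of macrophages and sinusoidal endothelium, fell by 0.71 (standard error 0.13, adjusted p = 0.043), from 6.95 and 7.09 in 6Y to 6.40 and 6.21 in 16Y. In the same comparison all 6 liver endothelial genes had lower means, with a median of -0.87, and Clec4g and Lyve1 were called lower (-1.20 and -1.36, adjusted p = 0.041 and 0.049). Their part in the Msr1 value was not tested. Between 42Y and 16Y, Retnlg was the 1 member called, where 0.399% of clusters were called and 0.205% were called higher. The calls of Cd14 over 6Y, of Msr1 and of Retnlg over 16Y were each lost when any 1 of the 4 arrays compared was left out. The call of Retnlg over 6Y was lost without 6Y-1 or 42Y-2, and that of Cxcr2 without either 6Y array or 42Y-2.

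Between the control groups 42WKK and 6K, 1.01% of clusters were called and no member was, with 5 of 38 (13.2%) at an unadjusted p under 0.05, against 15% of clusters. Of the 11 Kupffer cell genes 10 had lower means in 42WKK, with a median difference of -0.24 and the lowest for Marco, a scavenger receptor for bacteria, at -0.63. Of the 6 liver endothelial genes 5 were lower too, with a median of -0.37, and their part was not tested. The 10 neutrophil genes had a median of 0.06. Some of these comparisons share arrays, so their values are not independent of each other.

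Over the 3 Y groups against the 3 others, 36 of 38 members had the higher mean, with a median log2 difference of 0.27 against 0.00 over all clusters. The 2 sides are not matched by title number, as 16Y stands on one and group 1, of unstated strain, on the other. Arrays 1-3 and 1-5 lay at -0.61 and -0.24 from the gene means for Kupffer cell genes, and at -0.55 and -0.28 for shared myeloid genes. The part of group 1 in this comparison was not tested. Retnlg rose by 0.87 (standard error 0.11, adjusted p = 0.030) and Cd14 by 0.82 (standard error 0.11, adjusted p = 0.037), so 2 of 38 were called, both higher, where 0.208% of clusters were called and 0.129% were called higher. For Cd14 the Y arrays ran from 4.87 to 6.29 and the others from 4.11 to 4.95, which overlap. Among the Kupffer cell genes 7 of 11 (63.6%) were at an unadjusted p under 0.05, against 12.3% of clusters, and none was called. Without arrays 1-3 and 6Y-2 the number was 3 of 11 (27.3%), against 9.42% of clusters. Without arrays 1-3 and 6Y-2, or without the 6K arrays, no member was called here. Left out singly, 9 of the 12 arrays ended both calls, and the other 3 (6Y-1 and the 42Y pair) left that of Retnlg.

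Of the ligands for receptors in the set, 9 were measured and Cxcl1, a ligand of Cxcr2, was the 1 called. Its log2 signal was 10.6 and 9.55 in 42Y and 6.28 and 7.10 in 42WKK, a fold of 10.5 (log2 fold change 3.39, standard error 0.35, adjusted p = 0.0054). It was also higher in 42Y than in 6Y, by 3.69 (adjusted p = 0.0040), and than in 16Y, by 3.58 (adjusted p = 0.013), and the other 8 arrays ran from 6.22 to 7.30. The remaining 8 ligands, which include Ccl2, Csf1 and Csf3, were called in no comparison. Among them Cxcl2 and Cxcl5, also ligands of Cxcr2, had means of 3.49 and 2.80 in 42Y against 3.38 and 2.67 in 42WKK.

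Of 9 other neutrophil genes 8 had a higher mean in 42Y than in 42WKK and none was called there. At an unadjusted p under 0.05 the number was 3 (33.3%), against 17.3% of all clusters. Mmp8, the neutrophil collagenase, was called between 42Y and 6Y, at 4.11 and 4.06 against 2.78 and 3.01 (log2 fold change 1.19, standard error 0.22, adjusted p = 0.037). No gene of the 7 other monocyte genes was called in any comparison. Of 8 other genes of Kupffer cells and resident macrophages, Hmox1, the haem oxygenase of cells that clear red cells, rose in 42Y over 6Y by 1.98 (adjusted p = 0.0051), in 42Y over 16Y by 1.31 (adjusted p = 0.044) and in 42WKK over 6K by 1.60 (adjusted p = 0.017). Its log2 signal was 8.76 and 8.59 in 42Y and 8.56 and 8.28 in 42WKK, against 6.56 to 7.49 in the other 8 arrays, so it was high in both groups titled 42. Of 10 other genes of lipid-associated macrophages, Fabp5, a fatty acid binding protein (the brighter of 2 clusters), fell in 16Y against 6Y (-2.85, adjusted p = 0.014), in 42Y against 6Y (-2.07, adjusted p = 0.021) and in 42WKK against 6K (-1.93, adjusted p = 0.037). Lpl, lipoprotein lipase, fell in 16Y against 6Y (-2.49, adjusted p = 0.032) and in 42WKK against 6K (-3.12, adjusted p = 0.018). Ctsl, a lysosomal protease, rose in 16Y over 6Y (0.62, adjusted p = 0.041). Fabp5, Lpl, Ctsl and Hmox1 are expressed by other liver cells too.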

How the data were processed

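For each of 12 arrays the authors deposited a log2 signal per cluster. By the methods these came from liver RNA and were made with Affymetrix Expression Console (robust multichip analysis, sketch), which corrects background, normalizes between arrays and compresses low signals. An exon array is named there, but the cluster identifiers belong to the gene array. No source used here gives their genome build, and GRCm38.p6 tables served for gene names and promoters. Of 35556 clusters 21789 carried 1 symbol.

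A model of 6 group means with 1 shared spread (6 residual degrees of freedom) was fitted to all 12 arrays (lmFit and eBayes of limma 3.58.1, R 4.3.3), and clusters with a Benjamini-Hochberg adjusted p under 0.05 were called. The script was tested on simulated data. Precision is limited by the number of arrays, 2 a group. Full values were given for called members and, in each class, for the 3 largest differences of 42Y from 42WKK and of 6Y from 6K, and other listed genes were named if called. The members and lists were chosen with earlier results of these data known. Alternatives covered the normalization, low signals (a mean of at least 6), the variance model, the clusters tested, the arrays fitted and a replicate block.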

Additional observations from a re-analysis of the deposited data

How the results depend on the processing

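Of 400 values of the named members under alternatives, 392 kept their direction, 62 lost a call and 6 gained one. Changing the variance model, the clusters tested or the arrays outside a comparison leaves its log2 differences as they are. Direction could therefore turn only under the other alternatives, and the count of 392 includes values that could not change. The called members numbered 2 in 42Y against 42WKK, and 0 with only clusters of a mean of at least 6, a filter that removes all 10 neutrophil genes and Cd14. They numbered 6 over clusters with 1 symbol (Fcgr1, S100a9, Csf3r and Cxcr2 added), 0 with only the compared arrays, and 0 to 4 with an array left out, 0 of these without 42WKK replicate A and 4 without 42Y replicate 1. In the same order 42Y against 6Y, with 3 called, gave 0, 6 (Timd4, lower, and Gpnmb and Csf3r added), 0 and 0 to 3 (0 without 6Y replicate 1 or 42Y replicate 2, 1 without 6Y replicate 2). For 16Y against 6Y, with 1 called, the values were 2 (Mrc1 added), 2 (Mrc1 again beside Msr1), 0 and 0 whichever array was left out, and 0 without the 6K arrays. For 42Y against 16Y, with 1 called, they were 0, 3, 0 and 0 to 2 (2 without 42Y replicate 1, 0 without 42Y replicate 2 or either 16Y array), and 2 with median centring or a variance trend. For the Y groups against the others, with 2 called, the filter gave 1 (C1qc), leaving out the 6K arrays 0 and leaving out any array 0 to 1 (Retnlg, without 6Y replicate 1 or either 42Y array). The difference of the effects at 42 and 6 called 2 (Cd14 and Retnlg) over clusters with 1 symbol. Comparisons of 6Y with 6K and of 42WKK with 6K called 0 in every setting run. Without arrays 1-3 and 6Y-2, a choice made after seeing the data, 42Y against 42WKK still called Cd14 and Retnlg, and 42Y against 6Y, 16Y against 6Y, 42Y against 16Y and the Y groups against the others called 0. Where 1 array was left in a group, it was assumed to vary like the other groups. Apart from the filter, and from fits with fewer arrays, the cause of these moves was not tested.

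Without 6Y-2 the 6Y minus 6K differences of Vsig4, Fcer1g, Ngp and S100a8 turned to -0.000185, -0.0175, -0.0140 and -0.0526, with or without array 1-3, and without 6Y-1 they were 0.764, 1.35, 1.09 and 0.963. With the replicate number as a block among 6K, 6Y, 16Y and 42Y, 0 members were called in the 4 comparisons of these groups. The deviations of samples sharing a number correlated at -0.04 to 0.05. With 2 arrays a group this cannot exclude a shared day or litter that moves few genes. A mean over several clusters of a member was not run, since each member had 1. With 2 arrays a group, a difference that missed the threshold is not shown to be absent.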

Other observations

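The 3 genes below were chosen after their values were seen. Mmp12, the macrophage elastase, had a log2 signal of 5.48 in 42Y-2 and 4.09 in 42Y-1, and of 3.67 to 4.33 in the other arrays. Atp6v0d2, a subunit of the lysosomal proton pump in macrophages and osteoclasts, was 3.79 in 42Y-2 and 2.56 to 2.99 in the rest. Both had their highest value in the array in which Gpnmb was highest. Lcn2, lipocalin 2 of neutrophil granules and of stimulated hepatocytes, was 11.9 and 12.2 in 42Y, 12.1 and 12.8 in 16Y and 12.0 in 6Y-2, against 9.54 in 6Y-1 and 9.27 to 10.2 in the 6 arrays without Y in their titles. Lcn2 was called in no comparison, and its 6Y pair was 2.44 apart.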
